A study of Rattus norvegicus with 2 samples.

Results

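The genes described here are 51 genes of epithelial ion, chloride and water transport, chosen by name from the channels, carriers, pumps and water pores that move salt and fluid across epithelia. Earlier results of these data were known when they were chosen, so their counts are a description of the list. Of these, 49 had at least 1 probe set that the platform annotation assigns to that gene alone, out of 22093 genes with such a probe set. Clca2 and Slc9a3r1 had none and were not analysed here. They were measured in newborn rat epidermal keratinocytes, named NRK cells in the labels, which are cells of the outer skin layer grown in serum-containing medium with hydrocortisone. On 1 array the cells had received 5 µM all-trans retinoic acid (RA), the vitamin A metabolite that acts through nuclear receptors, dissolved in dimethyl sulfoxide, and RNA was taken at day 5. On the other array the cells were at day 5 without RA, and its title names no treatment. The design text gives vehicle as the only other condition, so this array was taken as the vehicle control. The labels used here give no strain and no number of cultures or animals. Each group holds 1 array, so no difference below could be tested or set against a spread between cultures.

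Epithelia move water by moving salt. Sodium enters the cell from the outer side through the epithelial sodium channel (ENaC) or carriers and is pumped out on the inner side by the Na+/K+-ATPase, potassium recycles through potassium channels, and chloride leaves through CFTR or calcium-activated channels when the tissue secretes. Bicarbonate carriers, sodium-proton exchangers and carbonic anhydrases set the pH that this transport depends on. In the epidermis, which neither absorbs nor secretes fluid as the airway or gut does, the aquaglyceroporin Aqp3 carries water and glycerol through the living layers, and TRPV cation channels sense heat and stretch and let calcium in.

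Values are log2 signals as deposited, and each difference subtracts the array without RA from that with RA, so that a positive value means a higher signal with RA. A difference of 1 unit is called 2-fold, on the deposited scale. Of the 49 measured members, 8 (16.3%) were higher with RA by at least this much and 6 (12.2%) were lower. Over all 22093 genes the shares were 5.09% higher and 3.64% lower. The higher members were Clca4l, Atp1b1, Slc4a7, Fxyd5, Kcnk6, Aqp9, Scnn1a and Kcnk5, and the lower ones were Aqp3, Clic3, Ano1, Fxyd3, Kcnk7 and Clic1. The list had no common direction. Its median difference was 0.01 beside -0.03 over all genes, and 25 members had a positive and 24 a negative difference.

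**Figure D1:**
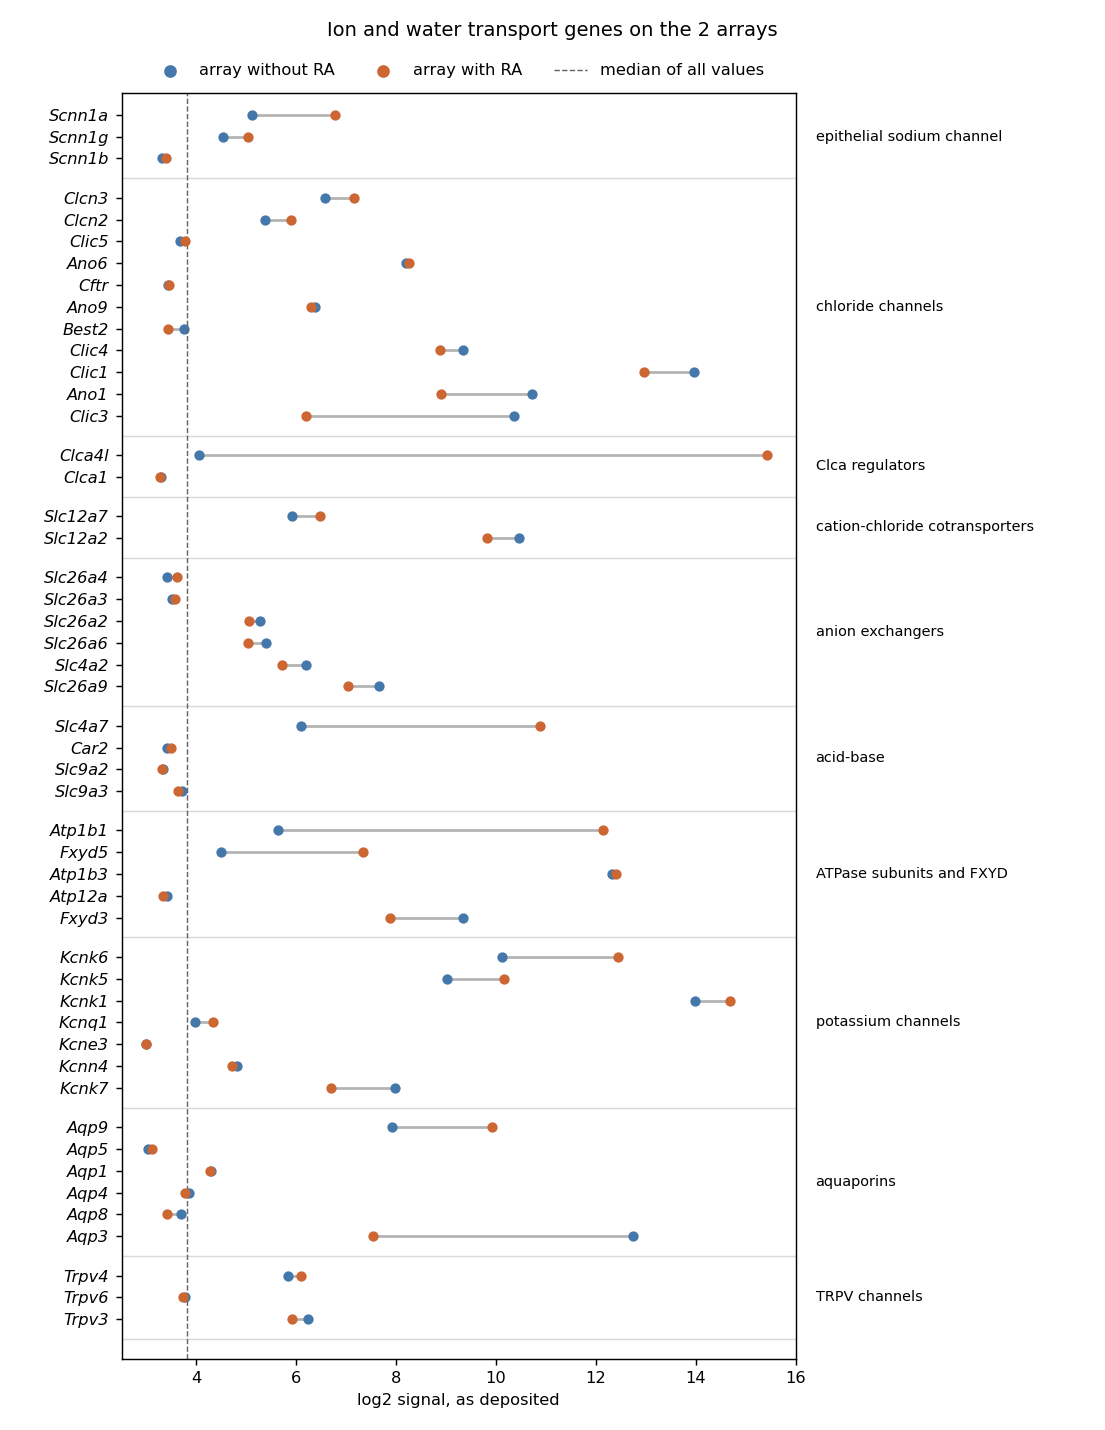
Log2 signal (horizontal axis, as deposited) of the 49 measured members on the array without RA (blue) and the array with RA (orange), grouped by role and sorted by difference within each role. Each point is 1 array, the grey line joins the points of a gene, and the dashed line is the median of all values, 3.81. Clca4l, Atp1b1 and Slc4a7 have the longest lines to the right and Aqp3 and Clic3 the longest to the left.

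Signal near the lower end of the scale cannot be told from background. A floor was set at 3.81, the median over every value of the table, and 15 members lay under it on both arrays. Their differences ran from -0.31 to 0.20. The floor is a convention and not a measured background. Features named as rat negative controls had medians of 4.57 without RA and 4.47 with RA, above the floor. The 23 background probes had medians of 2.90 and 2.81, under it. Members between the floor and the medians of the negative controls, such as Aqp1 and Kcnq1, therefore cannot be called above background. Of the 34 members with at least 1 value at or above the floor, 8 were higher and 6 lower by 2-fold or more. Over the 14274 genes that passed the floor in the same way, these shares were 7.88% and 5.63%. A gene that passed the floor through 1 array had to differ, so these counts describe the arrays and support nothing. Only Clca4l and Fxyd5 of the 14 changed members had a lower value within 1 unit of the floor, and no member reached the table's highest value of 19.93.

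**Figure D2:**
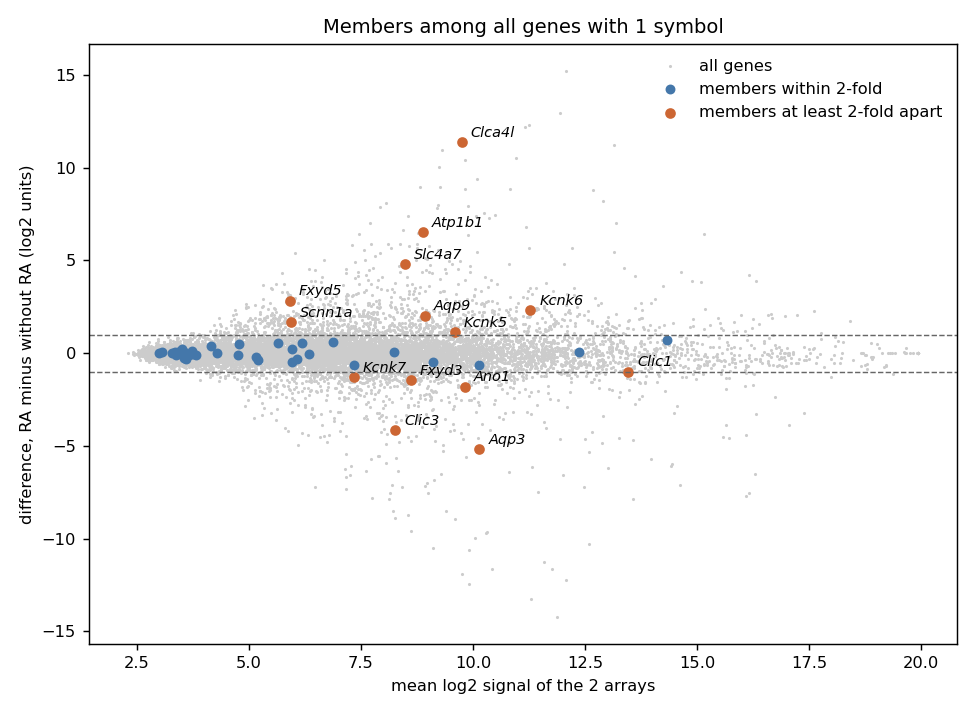
Difference (RA minus without RA, log2 units) against the mean log2 signal of both arrays for all 22093 genes (grey), with the members within 2-fold (blue) and at least 2-fold apart (orange, named). Dashed lines mark 1 and -1 log2 units. Clic1 lies on the lower line, and Clca4l lies at 11.38, ranked 6 from the top among all genes.

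Control features give a scale for these differences. The 92 spike sequences, mostly dim, differed by -0.47 to 0.38, and 0 of them reached 2-fold. Of 1153 features named as rat negative controls, 27.6% differed by at least 2-fold, as did 27.8% of 399 rat positive controls. A 2-fold difference alone was thus common among these features. In both directions together, 14 of 49 members did so. The negative controls differed by -4.12 to 4.61, and most of them by -2.17 to 2.01. Scnn1a, Kcnk5, Ano1, Fxyd3, Kcnk7 and Clic1 lay inside the narrower span. Of the changed members, only Clca4l, Atp1b1, Slc4a7, Aqp3 and Clic3 lay outside the wider one. Differences given below for these and other genes are to be read beside these spans. Of the keratinocyte markers, Krt15, a basal layer keratin, was at 19.60 without RA and 19.65 with RA, and E-cadherin (Cdh1) at 15.09 and 15.91. Krt14, the other basal keratin measured, was at 19.93, the table's highest value, and 12.25. The desmosomal cadherin gene Dsg3 was at 16.11 and 9.92, and Krt1, a keratin of the differentiated layers, at 18.98 and 4.78. Itgb4 and Itga6, of the same marker list, differed by -0.63 and -0.28, within 2-fold. Krt14 and Dsg3 were thus far lower with RA, and Krt15, close to the table's highest value on both arrays, was nearly equal. In all, 5 of 10 measured keratinocyte markers were at least 2-fold lower with RA and 1 was higher. Markers of fibroblasts, melanocytes, endothelium and immune cells had list medians between 3.40 and 3.65 on both arrays. Beside 5.09% higher and 3.64% lower of all genes, these 31 genes had 3.23% and 6.45%. The 1 higher with RA was Cd68, at 5.41 and 11.31, and the 2 lower were Col3a1 and Tek. Their part in the results below was not tested. As in any bulk RNA sample, fewer cells of a type and less RNA per cell cannot be told apart.

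ENaC is built from alpha, beta and gamma subunits, which Scnn1a, Scnn1b and Scnn1g encode. Scnn1a, the subunit without which the channel carries little current, was at 5.11 without RA and 6.78 with RA, 1.67 units higher. Scnn1g was at 4.54 and 5.03, a difference of 0.49 that did not reach 2-fold. Scnn1b was under the floor on both arrays, at 3.30 and 3.39. Thus only the alpha subunit passed the threshold, and Scnn1g and Scnn1b are direct neighbours among the protein-coding genes of the rat genome.

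Around the channel, genes that regulate ENaC or CFTR differed in both directions. Of 18 measured regulators of a list of 21, 7 (38.9%) passed 2-fold on the higher side with RA and 2 (11.1%) on the lower, beside 5.09% and 3.64% of all genes, and 9 were within 2-fold. Of these 18, 16 were above the floor, where the shares of all genes were 7.88% and 5.63%. The list's median difference was 0.59. P2ry2, a nucleotide receptor that raises cell calcium and drives chloride secretion, went from 6.37 to 10.16. St14 (matriptase), a membrane protease that starts the cascade by which ENaC is cleaved and opened, went from 10.68 to 13.84. Stk39 (SPAK), the kinase that phosphorylates cation-chloride cotransporters, was at 6.32 and 8.34. Spint1, an inhibitor of matriptase, was at 9.63 and 11.60, so that the protease and its inhibitor were both higher. The remaining 5 regulators past 2-fold were looked up after their values were seen. Nedd4l, the ubiquitin ligase that removes ENaC from the membrane, was 1.66 higher. Sgk1, the kinase that restrains Nedd4l, was 1.59 higher, and Prss8 (prostasin), a protease that activates ENaC, 1.58 higher. Nedd4l, which acts against the channel, and Sgk1 and Prss8, which act for it, were therefore all higher. The other 2 of these 5 lay on the lower side. Tmprss4, another membrane protease, was lower by 1.94, and Tsc22d3 (GILZ), a glucocorticoid- and aldosterone-induced regulator, by 1.43. Within 2-fold, and also looked up after their values were seen, were the mineralocorticoid receptor gene Nr3c2 and Hsd11b2. The latter is the enzyme that protects that receptor from glucocorticoids. Nr3c2 was at 3.55, under the floor, and 4.40, and Hsd11b2 was at 3.21 on both arrays.

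**Figure D3:**
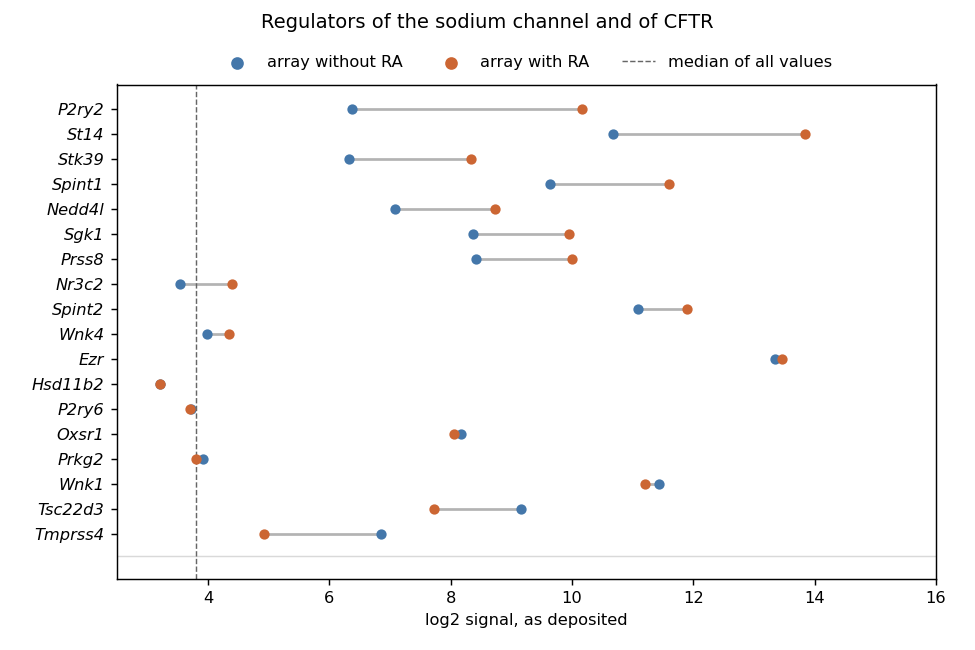
Log2 signal (as deposited) of the 18 measured regulators of ENaC and CFTR on the array without RA (blue) and the array with RA (orange), sorted by difference. The dashed line is the median of all values. P2ry2 and St14 show the longest shifts to the right, and Tmprss4 and Tsc22d3 are the 2 genes at least 2-fold lower.

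Among 11 chloride channel genes, 0 were at least 2-fold higher and 3 (27.3%) were lower, beside 5.09% and 3.64% of all genes. Clic3, of the chloride intracellular channel family, whose members exist as soluble and membrane proteins, went from 10.35 to 6.19, a difference of -4.17 at rank 96 from the lowest of all genes. Ano1 (TMEM16A), the calcium-activated chloride channel of secretory epithelia, went from 10.73 to 8.91. Clic1 went from 13.97 to 12.97, which is at the threshold of 1 unit. That count therefore falls to 2 under small changes of scale. With each array centred on its median the difference of Clic1 was -0.95, and with a lowess curve over all probe sets removed it was -0.40. Clic4 was at 9.34 and 8.89, and Ano6, a phospholipid scramblase of the same family as Ano1, was at 8.21 and 8.27. Ano9 differed by -0.06. The ClC family members Clcn2, a voltage-gated chloride channel, and Clcn3, an endosomal chloride-proton exchanger, were 0.52 and 0.59 higher. For Clcn2 a dimmer probe set gave 0.37. Cftr, the chloride channel altered in cystic fibrosis, was under the floor at 3.43 and 3.46. Best2, a calcium-activated channel of sweat and gut glands, was at 3.75 and 3.44, and Clic5 at 3.67 and 3.77, also under the floor.

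Clca4l had by far the largest difference of the list. The CLCA proteins are secreted or membrane-attached metalloproteases that regulate calcium-activated chloride channels and mucus rather than forming pores themselves. Clca4l went from 4.06, close to the floor, to 15.43, a difference of 11.38. Its signal on the array without RA may be background, so the size of this difference is uncertain and holds on the deposited scale only. Clca1, known from goblet cells of gut and airway, was at 3.29 and 3.27, under the floor on both arrays. In the RefSeq annotation of the rat genome the 5 Clca genes stand side by side, in the order Clca5, Clca4l, Clca4, Clca1 and Clca2. Clca4, which is no member but neighbours Clca4l, went from 4.21 to 7.51, a difference of 3.30. Its value without RA lay under the negative controls' median of 4.57, so this size is uncertain too. The differences thus were 11.38, 3.30 and -0.02 over 3 successive genes. The family members are close relatives whose probe sets may share signal, and the part of this in the values of Clca4l and Clca4 was not tested. Clca5 and Clca2 share their probe sets' annotation with each other and were not used here.

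The promoters of these 3 neighbours are shown because their genes differed so unequally within a single gene cluster. Each is the stretch of 250 bases before the gene start from RefSeq, 5′ to 3′ along the gene, all in lower case because none of the motifs searched occurs there.
Clca4l, GRCr8 chr2:236506484-236506733, minus strand: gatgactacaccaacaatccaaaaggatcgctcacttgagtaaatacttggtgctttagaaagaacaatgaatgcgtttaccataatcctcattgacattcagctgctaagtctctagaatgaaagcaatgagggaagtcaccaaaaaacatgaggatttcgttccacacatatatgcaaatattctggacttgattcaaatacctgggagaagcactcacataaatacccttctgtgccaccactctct
Clca4, GRCr8 chr2:236565097-236565346, minus strand: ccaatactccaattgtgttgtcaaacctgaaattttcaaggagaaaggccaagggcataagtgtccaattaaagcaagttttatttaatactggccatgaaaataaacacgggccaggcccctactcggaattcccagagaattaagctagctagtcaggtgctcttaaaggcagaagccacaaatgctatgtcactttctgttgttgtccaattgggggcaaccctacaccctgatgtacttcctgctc
Clca1, GRCr8 chr2:236624715-236624964, minus strand: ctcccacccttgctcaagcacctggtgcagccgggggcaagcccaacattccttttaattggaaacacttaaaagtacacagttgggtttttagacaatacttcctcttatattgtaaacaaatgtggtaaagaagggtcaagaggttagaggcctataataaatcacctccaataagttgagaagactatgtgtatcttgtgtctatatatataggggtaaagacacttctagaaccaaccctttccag
The share of G and C was 39.6% for Clca4l, 44.0% for Clca4 and 40.8% for Clca1, below the median of 52.0% over all 27457 promoters and of 65.2% over the 37 members with a promoter in the table. The letters searched, on both strands and counting overlaps, were AGGTCA and AGTTCA, half-sites of nuclear receptors that include the retinoic acid receptors, TGACTCA, the AP-1 site, and the direct repeats DR1, DR2 and DR5 of nuclear receptor half-sites. In the repeats, GGGTCA or else GGTTCA was also taken as a half-site, so that a repeat need not hold either of the half-sites searched alone. AGGTCA occurred in 13.7% of all promoters and in 6 of the 37 members, AGTTCA in 12.1% and in 4, and TGACTCA in 3.98% and in 2. All of these were members within 2-fold. Of the 14 changed members, 8 had a promoter in the table, 4 higher and 4 lower. Among the repeats, DR1 and DR5 were in 0.208% and 0.324% of all promoters and in 0 members. DR2 was in 0.131% of all promoters and in 1 member, Ano1. A match is a description of these letters and does not show that a receptor binds.

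Ano1 is shown for that match, with the repeat in capitals. It lies on the strand opposite to the gene, and its nearest base is 88 bases before the start. Aqp3, the member furthest lower with RA, is shown beside it and holds none of the motifs.
Ano1, GRCr8 chr1:209329339-209329588, minus strand: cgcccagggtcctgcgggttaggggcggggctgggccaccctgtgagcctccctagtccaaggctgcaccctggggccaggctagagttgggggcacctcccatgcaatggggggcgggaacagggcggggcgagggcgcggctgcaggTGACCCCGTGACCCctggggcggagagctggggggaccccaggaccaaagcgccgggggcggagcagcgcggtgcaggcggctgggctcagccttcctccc
Aqp3, GRCr8 chr5:61040684-61040933, minus strand: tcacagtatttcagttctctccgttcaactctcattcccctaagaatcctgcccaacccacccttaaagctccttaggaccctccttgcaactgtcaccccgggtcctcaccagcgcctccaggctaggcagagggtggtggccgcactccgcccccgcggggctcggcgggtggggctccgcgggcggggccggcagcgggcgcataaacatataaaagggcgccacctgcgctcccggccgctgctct
Both are richer in G and C, at 74.8% and 65.2%, than the 3 Clca promoters above, and both genes were lower with RA. This is a description of the few promoters shown and was not tested.

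The cation-chloride cotransporters and anion exchangers among the members all differed by less than 2-fold. Slc12a2 (NKCC1), which loads cells with sodium, potassium and chloride from the inner side, was at 10.46 without RA and 9.81 with RA, a difference of -0.65. Slc12a7, a potassium-chloride cotransporter, was at 5.91 and 6.46, or 0.56 higher. Of the 6 anion exchangers, 0 reached 2-fold in either direction, beside 5.09% higher and 3.64% lower of all genes. With so few genes, this count says little. Their median difference was -0.29. Slc26a9, a chloride channel and exchanger of airway and stomach, had the largest difference of these 6, from 7.66 to 7.03. Slc4a2, the widespread chloride-bicarbonate exchanger, went from 6.20 to 5.72. The exchangers Slc26a6 and Slc26a2, the latter the sulfate carrier of cartilage, differed by -0.36 and -0.22. Slc26a3 and Slc26a4 (pendrin) were under the floor at 3.41 to 3.60. Among 25 further carriers of the SLC12, SLC4, SLC9 and SLC26 families, 2 (8.0%) were at least 2-fold higher and 2 (8.0%) lower. The shares of all genes were 5.09% and 3.64%. Slc9a9, an endosomal sodium-proton exchanger, went from 9.60 to 7.17. Slc12a4 went from 6.69 to 5.69, at the threshold. Slc4a11 and Slc9a8 were higher by 1.14 and 1.05.

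Acid-base carriers had a single large difference. Slc4a7 (NBCn1), the electroneutral sodium-bicarbonate cotransporter that brings base into the cell, went from 6.09 to 10.88. Its difference of 4.79 was at rank 67 from the highest of all genes. Slc9a2 and Slc9a3, the sodium-proton exchangers of the outer membrane of gut and kidney cells, were under the floor with differences of -0.01 and -0.08. Car2, a cytosolic carbonic anhydrase, was under it too, at 3.41 and 3.50. Of 15 other carbonic anhydrases, 1 (6.67%, beside 5.09% of all genes) was at least 2-fold higher and 0 lower. That was the mitochondrial Car5b, from 12.59 to 14.31. The membrane enzyme Car12 and the cytosolic Car13, looked up after their values were seen, went from 13.12 to 12.25 and from 12.99 to 12.05, just inside 2-fold.

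The Na+/K+-ATPase consists of a catalytic alpha and a beta subunit, and FXYD proteins modulate it. Atp1b1, the beta subunit of most transporting epithelia, went from 5.63 to 12.14. This difference of 6.51 was the second largest of the list, at rank 33 from the highest of all genes. Atp1b3, another beta subunit, was at 12.33 and 12.41, a difference of 0.08. The beta subunits therefore differed unequally between the arrays. Genes for alpha subunits had no probe set of their own and were not analysed here. Fxyd5 (dysadherin), which modulates the pump and cell adhesion, went from 4.50 to 7.33, 2.83 higher. Its value without RA lay under the negative controls' median of 4.57, so the size of this difference is uncertain. Fxyd3 went from 9.34 to 7.88, 1.45 lower. Atp12a, the alpha subunit of the non-gastric proton-potassium pump, was under the floor at 3.41 and 3.33. Of 8 other subunits and FXYD genes measured, 0 reached 2-fold, beside 5.09% higher and 3.64% lower of all genes. They included Fxyd2 and Fxyd4, kidney modulators looked up after their values were seen, which differed by -0.94 and 0.69.

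Potassium channel genes went both ways. The KCNK genes encode tandem pore domain channels, many of which carry background potassium current. Kcnk6 went from 10.11 to 12.44, and its dimmer probe set from 8.02 to 9.47, so that both were past 2-fold. Kcnk5, a channel sensitive to outside pH, was at 9.02 and 10.17, or 1.14 higher. Kcnk1 was at 13.99 and 14.69, a difference of 0.70. That value became 1.37 with a lowess curve over all probe sets removed and 1.35 with a further quantile normalization. Kcnk7 lay on the other side, at 7.99 and 6.69. Of these 4 genes, Kcnk6 and Kcnk5 were thus at least 2-fold higher, Kcnk1 was within 2-fold and Kcnk7 was at least 2-fold lower. Kcnk2, Kcnk3 and Kcnk10, no members and looked up after their values were seen, differed by -0.07, -0.11 and 0.06. Kcnq1, the channel that with Kcne3 carries basolateral current in gut and airway, was at 3.96 and 4.33, and Kcne3 was under the floor at 2.98 and 2.99. Kcnn4, the intermediate calcium-activated channel, was at 4.81 and 4.72. Of 18 other epithelial potassium channels, 1 (5.56%, beside 5.09% of all genes) was at least 2-fold higher and 0 were lower. It was the inward rectifier Kcnj15, from 5.21 to 7.24.

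Aquaporins included the largest negative difference of the list. Aqp3 went from 12.74 without RA to 7.54 with RA, a difference of -5.19 at rank 62 from the lowest of all genes. Aqp9, a water and small-solute pore known from liver and leukocytes, went from 7.91 to 9.93, 2.01 higher. Both are aquaglyceroporins, which pass glycerol as well as water, and they lay on opposite sides. The other 4 lay near the floor, with differences from -0.28 to 0.08. Aqp1, of vessels and kidney, was at 4.29 and 4.28, and Aqp4, of brain and airway, at 3.86 and 3.77. Aqp5, the water channel of sweat, salivary and lacrimal glands, was at 3.03 and 3.11, and Aqp8 at 3.68 and 3.41. Of 6 further aquaporin genes, 0 reached 2-fold, beside 5.09% higher and 3.64% lower of all genes. Among them was Aqp7, the direct neighbour of Aqp3 in the genome, looked up after its values were seen. Aqp7 was at 3.18 and 3.23.

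TRPV members differed by less than 2-fold. Trpv3, a heat-sensing channel of keratinocytes, was at 6.23 and 5.92, and Trpv4, a channel for warmth and osmotic stretch, at 5.84 and 6.08. Trpv6, a calcium-selective channel of gut and epidermis, was under the floor at 3.77 and 3.73. In a list of 18 genes of epidermal calcium handling, 1 (5.56%, beside 5.09% of all genes) was at least 2-fold higher and 0 lower. It was Trpv1, the capsaicin receptor, which went from 4.35 to 7.47. The value of Trpv1 without RA lay under the negative controls' median of 4.57, so the size of its difference is uncertain. Trpv1 is the direct neighbour of Trpv3, whose difference was -0.31. The calcium pump genes Atp2a2 and Atp2c1, whose human counterparts are mutated in the skin diseases of Darier and Hailey-Hailey, and which were looked up after their values were seen, differed by 0.87 and -0.75.

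Seen by role, the 14 changed members came from 7 of the 10 groups. The cation-chloride cotransporters, anion exchangers and TRPV channels had none. These groups hold 2, 6 and 3 measured genes, so their counts of 0 say little beside 5.09% and 3.64% of all genes. Chloride channels had differences past 2-fold on the lower side only, ATPase subunits, potassium channels and aquaporins on both sides, and ENaC, Clca and acid-base genes on the higher side only, each with 1 gene. Over the 134 measured genes of the 8 other lists, 13 were at least 2-fold higher and 4 lower, or 9.70% and 2.99%, with a median of -0.02. Over all genes the shares were 5.09% and 3.64%, so the lower share was near that of all genes. Above the floor the other lists had 17.6% higher and 5.41% lower, beside 7.88% and 5.63%. Of these 17 genes, 9 were regulators of ENaC and CFTR.

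**Figure D4:**
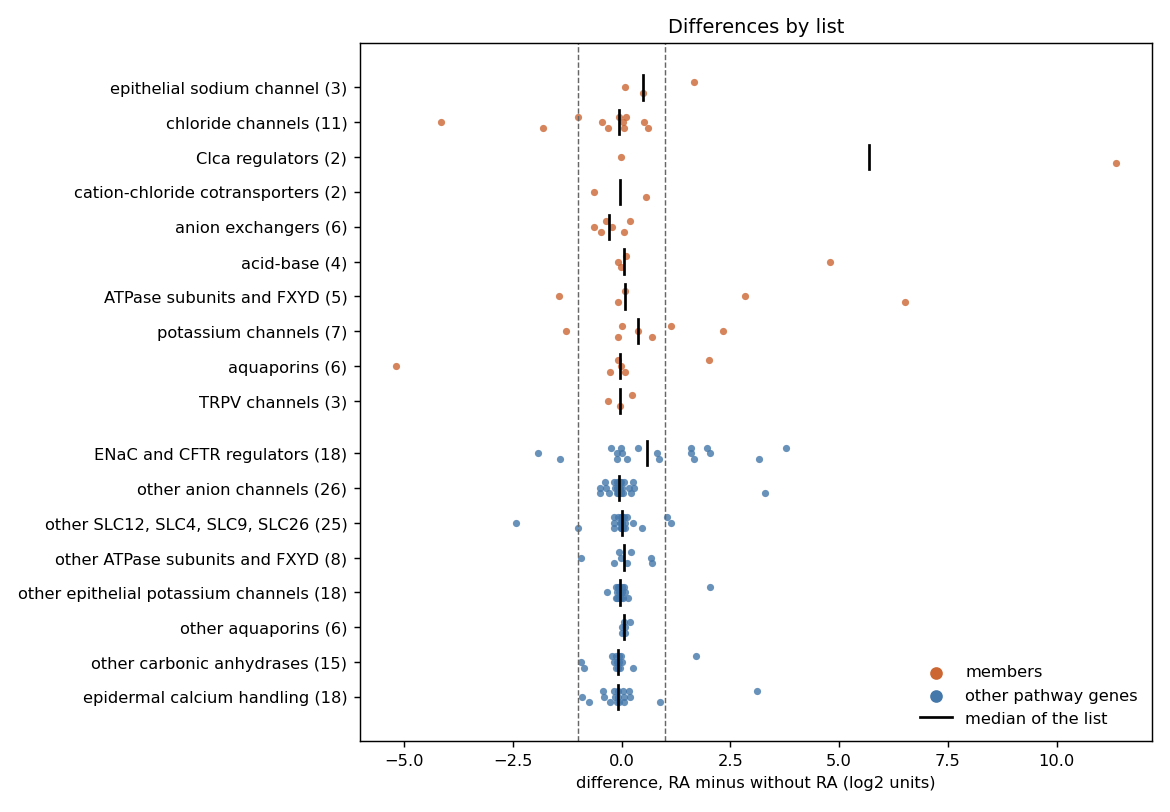
Difference (RA minus without RA, log2 units) of each measured gene in the 10 member groups (orange) and the 8 lists of other pathway genes (blue), with the number of measured genes in brackets. Black bars are list medians and dashed lines mark 1 and -1 log2 units. Most genes lie within 2-fold, and the regulators of ENaC and CFTR have a median of 0.59.

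Genes that mark glands with this kind of transport gave values over and under the floor. Of 10 measured markers of sweat gland and ionocytes, 1 (10.0%) was at least 2-fold higher, the transcription factor Foxa1, from 5.06 to 7.68, and 0 were lower. The shares of all genes were 5.09% higher and 3.64% lower. Slc12a2, Aqp5 and Best2 are on this marker list and are also members, so their values are those given above. Foxi1, the factor that defines ionocytes, was at 3.68 and 3.41. Of 10 mucous and glandular markers, 3 (30.0%) were higher and 1 (10.0%) lower. The membrane mucins Muc4, Muc13 and Muc1 were higher by 8.94, 4.30 and 3.17, and Muc16 was lower by 1.33. Muc4 was at 4.36 without RA, under the negative controls' median of 4.57, so the size of its difference is uncertain. The gel-forming Muc2 and Muc5b stayed under the floor, at 3.44 to 3.51. Their relation to the transport genes was not tested.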

How the data were processed

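RNA was labelled with biotin by a whole-transcript kit for GeneChip arrays, per the labels' protocols. The deposited table holds 1 log2 signal per array for 70580 probe sets. Per the submitters' processing notes, the authors used the Transcriptome Analysis Console and RMA, which corrects background, normalizes arrays and summarises probes. Versions and the array's genome build were not given in the sources used here. Base 2 was inferred from the range of the values. Both columns end at 19.93, beyond the range of a scanner image, through a step that these notes do not describe, so folds hold on the deposited scale only. Depth does not apply to arrays, and their number, 1 per group, limits the precision.

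Computed here, with Python 3.11.15, numpy 2.4.6, pandas 2.3.3, statsmodels 0.14.6 and matplotlib 3.10.9, was the difference per gene. Genes were taken from the 23446 probe sets with 1 symbol, and a gene with several probe sets by the one with the highest mean. The 505 probe sets with several symbols and the 46629 with none were left out. All 49 members matched RefSeq by Entrez ID with the same symbol. Promoters and gene order are RefSeq's for GRCr8. The counting was tested on simulated data. All members are named, and of each other list the 4 genes furthest past 2-fold above the floor. Genes outside this rule are said to be looked up after their values were seen, except those of the marker lists. The members and lists were chosen with earlier results of these data known. Alternatives were other scalings, filters, probe set summaries and thresholds.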

Additional observations from a re-analysis of the deposited data

How the results depend on the processing

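Direction held for all 14 changed members under the 6 alternative scalings or summaries of their values. The 14 were picked for a large difference and the alternatives reuse the same 2 arrays, so a reversal was hardly possible and this supports nothing. Clic1 alone dropped inside 2-fold, at -0.95 with centred arrays, -0.40 and -0.89 with lowess over all or over 1-symbol probe sets removed, and -0.52 after a further quantile normalization. Kcnk1 came past 2-fold in 2 of these. Higher members numbered 8 or 9 and lower ones 5 or 6 under these scalings and the floors. At 4-fold 6 (12.2%) were higher and 2 (4.08%) lower, beside 1.97% and 1.29% of all genes. At 1.5-fold these were 10 (20.4%) and 8 (16.3%), beside 9.03% and 8.03%. The lowess over 1-symbol probe sets was added after the data were seen. So was the removal of the 3 members furthest higher and the 3 furthest lower. Without these members, 5 (11.6%) were higher and 3 (6.98%) lower, beside 5.08% and 3.63% of all genes without them. All members removed were changed ones, so these counts were fixed in advance and support nothing. The mean difference, 0.36, lay above the median of 0.01. No paired analysis was possible because a group is a single array, which also leaves no replicate to omit. Values near the floor limit what can be said of dim genes.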
